A study of Mus musculus with 12 samples.

Results

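The Mir-154 family is a group of related microRNAs (miRNAs) encoded in the imprinted Dlk1-Dio3 region, and its members were taken here by name. A row of the table was a member when its MirGeneDB name, up to any slash, was Mir-154 or began with Mir-154 and a paralogue number. That rule found 46 of the 513 rows, each an arm (5p or 3p) of a hairpin, from 25 paralogues. Of the 46 arms, 21 were 5p and 25 were 3p, and 14 carried the asterisk that marks a passenger arm, the strand of the duplex that is usually discarded. Both arms were present for 20 of the paralogue names and 1 arm for the other 6, since the variants v1 and v2 of paralogue P20 have separate rows. In 6 rows an arm shared by a pair of variants stood under both names, and such a row is called here by its first name.

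The libraries came from the hippocampus of 12 male wild-type C57BL/6J mice, an inbred strain. In the exercised lineage, 6 mice were grandsons through the male line (F2) of grandfathers (F0) that had exercised, and in the sedentary lineage 6 were grandsons of sedentary grandfathers. The labels give neither the form of exercise nor the age of the mice, and name no treatment of the F2 mice themselves. The comparison asks whether a grandfather's exercise goes with a different hippocampal miRNA profile in his grandsons. Replicate numbers below are the mouse numbers of the labels.

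A miRNA hairpin is cut to a short duplex, and 1 strand is loaded into an Argonaute protein, where bases 2 to 8 (the seed) pair with target messenger RNAs and lower their output. Dlk1-Dio3 miRNAs are processed from long noncoding transcripts of the maternally inherited chromosome. They are abundant in brain, and transcription of the cluster in neurons responds to activity. Members of the cluster are known for roles in dendrite and synapse growth.

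The sequences of the namesake Mir154 show what such a hairpin holds, and those of some neighbours show how alike arms of the cluster can be. They are RefSeq sequences on build GRCm38.p6. Mir154 lies at chr12:109738433-109738498 on the plus strand, within an intron of the long noncoding RNA gene Mirg (chr12:109729764-109749460) in the GENCODE M21 annotation. In its hairpin, capitals mark the mature 5p and 3p arms.
Mir154 hairpin: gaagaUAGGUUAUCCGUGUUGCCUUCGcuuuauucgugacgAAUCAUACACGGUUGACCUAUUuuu
In the mature arms, capitals mark the seed.
mmu-miR-154-5p: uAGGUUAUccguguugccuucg
mmu-miR-154-3p: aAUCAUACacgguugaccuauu
The RefSeq list used here holds 71 mature arms from Mir379 to Mir410, a span of 34736 bases around Mir154. It lacks an arm of some hairpins, such as Mir485 and Mir539, and missing arms were not compared. The 71 arms had 64 different seeds, and 14 arms shared their seed with another arm of the span. No other listed arm had either seed of Mir154. Pairs with 4 of the shared seeds are shown because arms with the same seed can address the same target sites.
mmu-miR-379-3p: uAUGUAACaugguccacuaacu
mmu-miR-411-3p: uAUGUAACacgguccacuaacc
mmu-miR-379-5p: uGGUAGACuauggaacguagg
mmu-miR-1193-5p: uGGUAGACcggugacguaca
mmu-miR-494-5p: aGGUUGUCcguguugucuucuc
mmu-miR-410-5p: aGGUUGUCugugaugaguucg
mmu-miR-496a-5p: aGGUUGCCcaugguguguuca
mmu-miR-453: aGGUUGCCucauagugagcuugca
The sources used here do not pair the paralogue numbers of the table with these names. No sequence, position or individual function is therefore assigned to a row, and the members are described by paralogue number and arm.

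All levels below are normalized counts (reads scaled by a size factor for each library), and mature arms are of like length (18 to 25 bases in this span). Depth was 6862623 to 10219856 reads per library. The neuronal miRNAs Mir-124, Mir-9, Mir-128 and Mir-218 together held 33.7% to 39.7% of a library, and no row of the 7 marker lists was at 0 throughout either lineage. Choroid plexus markers had the widest relative range of these lists, from 0.363% to 2.34% of counts in the exercised and from 0.357% to 1.86% in the sedentary lineage. Their part in the values below was not tested. The codes of the libraries share stems in sets of 3, with R31 and R41 only in the exercised lineage and S11 and S41 only in the sedentary one. What a stem stands for is not in the labels, and stem and lineage cannot be told apart, since each stem holds 1 lineage. Fewer cells that express a miRNA and less of it per cell cannot be told apart in such tissue libraries.

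The family was carried by 4 arms. Mir-154-P13_5p, Mir-154-P7_5p, Mir-154-P9_3p and Mir-154-P34_3p were the only members with a mean of 10000 or more normalized counts, and together they held 81.5% to 85.3% of the family's counts in each library. In all, 20 arms had a mean of 1000 or more, 9 between 100 and 1000, 14 between 10 and 100, and 3 below 10. The filter on low values, a mean of 10 or more, passed 43 of the 46 arms.

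The family as a whole took 4.24% ± 0.564 of all counts in exercised-lineage libraries, against 3.87% ± 0.266 in sedentary ones (SD, n = 6 per lineage). These shares ran from 3.66% to 5.29% and from 3.49% to 4.13%, so the lineages overlapped. The highest share belonged to exercised replicate 1, the library with the lowest total of normalized counts (6458450), and the exercised mean was 4.03% without it. As a sum, the family stood at 340580 ± 8188 against 332468 ± 17800 normalized counts. Other miRNAs of the Dlk1-Dio3 region, a list of 37 rows, held 5.69% ± 0.918 and 5.60% ± 0.417 of counts. No test was made of these family totals.

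Mir-154-P13_5p was the most abundant member, with 34.9% of the family's counts on average. It ran from 117106 to 126060 normalized counts in the exercised lineage (median 122382) and from 102103 to 124614 in the sedentary lineage (median 112668). All 6 exercised-lineage libraries lay above the sedentary median, while 4 of 6 sedentary-lineage libraries lay below every exercised one. The fold, which here means the difference of the exercised from the sedentary lineage in log2(value + 1), a scale that understates differences of rare arms, was 0.11 (SE 0.07, limma adjusted p = 0.532). Mir-154-P7_5p followed, from 71660 to 81002 (median 75895) against 70004 to 95350 (median 79118). Its fold was -0.08 (SE 0.08, limma adjusted p = 0.732), but 0.01 under scaling by library totals.

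Next came a pair of 3p arms whose folds, like that of P13_5p, lay above 0. Mir-154-P9_3p ran from 46937 to 57766 (median 52591) in the exercised and from 43688 to 53336 (median 48270) in the sedentary lineage, a fold of 0.10 (SE 0.08). Mir-154-P34_3p ran from 34589 to 41843 (median 36485) against 30216 to 39035 (median 33680), a fold of 0.14 (SE 0.08). All 6 of its exercised-lineage values lay above the sedentary median. Mir-154-P5_5p, the fifth most abundant, ran from 7993 to 9797 (median 8825) against 8751 to 10960 (median 9679), a fold of -0.12 (SE 0.08). None of these 3 differences met the adjusted threshold (limma adjusted p = 0.650, 0.532 and 0.578). Without the R41 libraries the folds of P13_5p and P9_3p were 0.08 and 0.03, and without the R31 libraries those of P34_3p and P5_5p were 0.09 and -0.06.

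**Figure D1:**
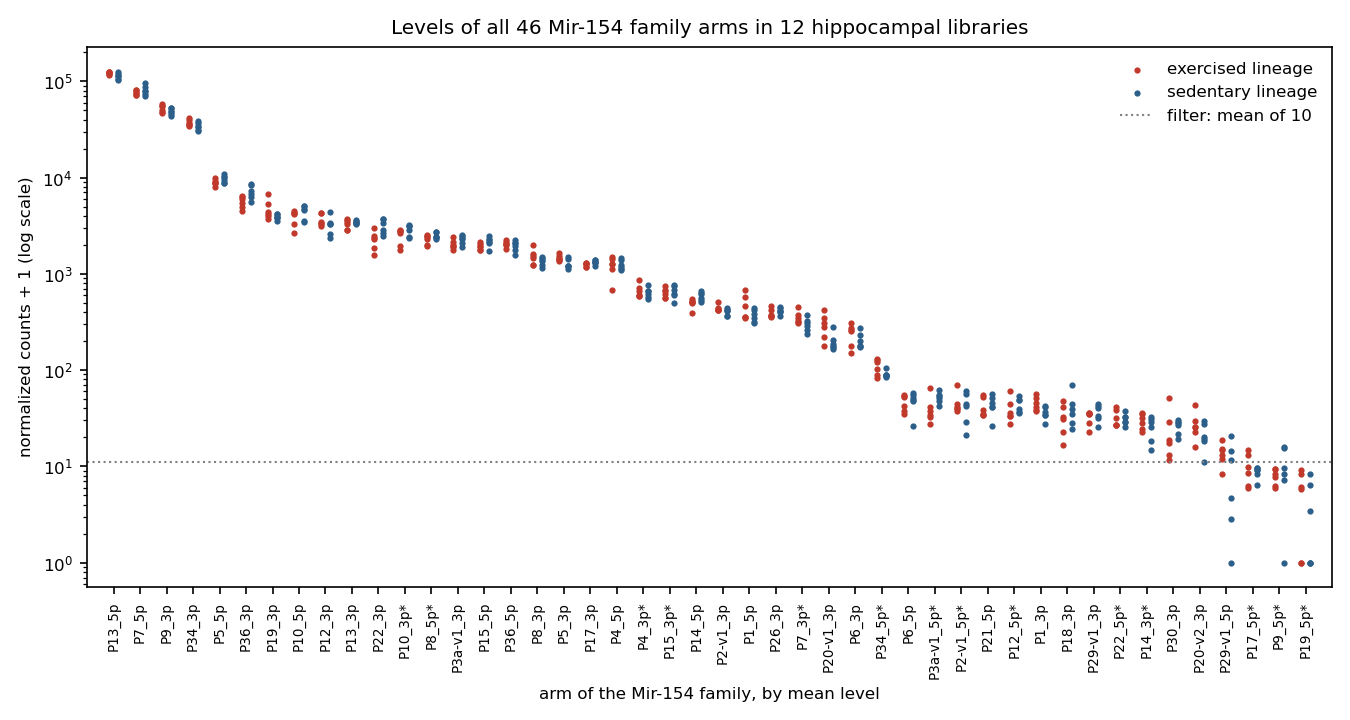
Normalized counts plus 1 (vertical axis, log scale) of all 46 arms, ordered by mean level, with 1 point per library and 6 libraries in each lineage. The 4 leading arms stand apart from 30216 upward, and the lineages overlap for every arm.

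Between the lineages, no arm of the family met the adjusted threshold. The lowest adjusted p among its 43 tested arms was 0.532, in a limma fit over all 474 tested arms of the table that also called 0 arms (0.0%). At an unadjusted p below 0.05 there were 6 members (14.0%), where the share over all tested arms was 7.17%. Of these 6, 4 had a fold below 0 and 2 above 0, against 3.59% of all tested arms in either direction. Without exercised replicate 6 there were 3 members and 18 of all tested arms at an unadjusted p below 0.05. The values of the lineages overlapped for all 43 arms, and arms without overlap made up 0.0% of all tested arms.

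Folds of the members lay on both sides of 0, with 21 above and 22 below (median -0.02). Over all tested arms 49.8% of folds lay above and 50.2% below 0 (median -0.00). With libraries scaled by their totals, 27 members lay above and 16 below 0 (median 0.07), while the median of all arms moved to 0.09. Of the other Dlk1-Dio3 arms, 17 of 35 tested lay above 0 and 18 below, 0 were called, and 6 had an unadjusted p below 0.05. By arm, 7 of 18 tested 5p arms and 14 of 25 tested 3p arms of the family had a fold above 0. Among the 11 tested passenger arms 6 were above 0. The 95% confidence interval reached a median of 0.29 to each side for the members, a 1.22-fold difference, and lay within 1.5-fold in both directions for 30 of 43 (69.8%, against 58.9% of all tested arms). It did so for 18 of the 20 members with a mean of 1000 or more, against 137 of all 169 such arms. With a mean of 10 to below 100 it did so for 5 of 14 members, against 39 of all 155 such arms.

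**Figure D2:**
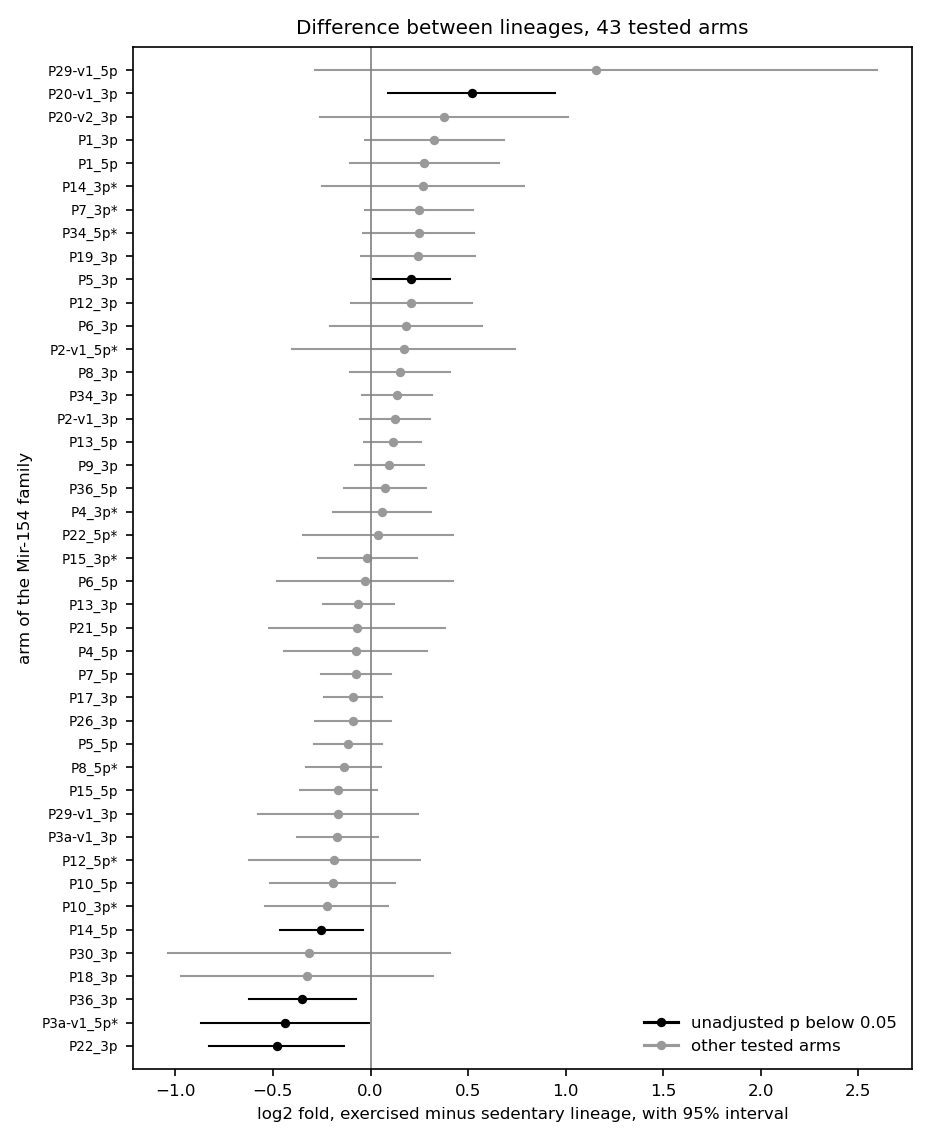
Log2 fold (horizontal axis, exercised minus sedentary lineage) with its 95% confidence interval for each of the 43 tested arms, ordered by fold, with arms at an unadjusted p below 0.05 in black. The 6 black intervals leave out 0, 4 of them below it, and none of these arms passed the adjusted threshold.

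Of the 6 arms with an unadjusted p below 0.05, 4 stood lower in the exercised lineage. Mir-154-P22_3p ran from 1561 to 3001 normalized counts in the exercised lineage (median 2324) and from 2451 to 3723 in the sedentary lineage (median 3109). All 6 exercised-lineage libraries lay below the sedentary median, and 4 of them below every sedentary library. The fold was -0.48 (95% confidence interval -0.83 to -0.14, limma adjusted p = 0.532). Both stems of each lineage showed the same order, with means of 2397 (R31) and 2104 (R41) against 3171 (S11) and 3062 (S41).

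Mir-154-P36_3p had the same pattern at a higher level. It ran from 4443 to 6498 (median 5696) in the exercised and from 5634 to 8613 (median 6918) in the sedentary lineage. Again all 6 exercised-lineage libraries lay below the sedentary median, and 4 sedentary-lineage libraries lay above every exercised one. The fold was -0.35 (95% confidence interval -0.62 to -0.08, limma adjusted p = 0.532), with stem means of 5618 and 5523 against 7137 and 7106.

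Mir-154-P14_5p ran from 393 to 541 (median 511) in the exercised and from 509 to 665 (median 590) in the sedentary lineage. Exercised replicate 6 was the lowest, and the next value in its lineage was 493. Its fold was -0.25 (95% confidence interval -0.47 to -0.04, limma adjusted p = 0.532). The passenger arm Mir-154-P3a-v1_5p* was far less abundant, from 26.5 to 64.8 (median 34.7) against 41.7 to 60.8 (median 51.5). There 5 of 6 exercised-lineage libraries lay below every sedentary one, while exercised replicate 1 was the highest of all 12. The fold was -0.44 (SE 0.20, limma adjusted p = 0.532), -0.59 without that library and -0.15 without the R41 libraries.

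The other 2 arms stood higher in the exercised lineage. Mir-154-P20-v1_3p ran from 176 to 418 (median 292) in the exercised and from 165 to 279 (median 183) in the sedentary lineage. The fold was 0.52 (95% confidence interval 0.09 to 0.95, limma adjusted p = 0.532). Here the stems differed within a lineage, with 347 for R31 and 233 for R41 against 208 for S11 and 187 for S41. The fold was 0.22 without the R31 libraries and 0.81 without the R41 libraries. Mir-154-P5_3p ran from 1372 to 1658 (median 1430) against 1108 to 1490 (median 1211). All 6 of its exercised-lineage libraries lay above the sedentary median, and 4 sedentary-lineage libraries lay below every exercised one. Its fold was 0.21 (95% confidence interval 0.01 to 0.41, limma adjusted p = 0.532).

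**Figure D3:**
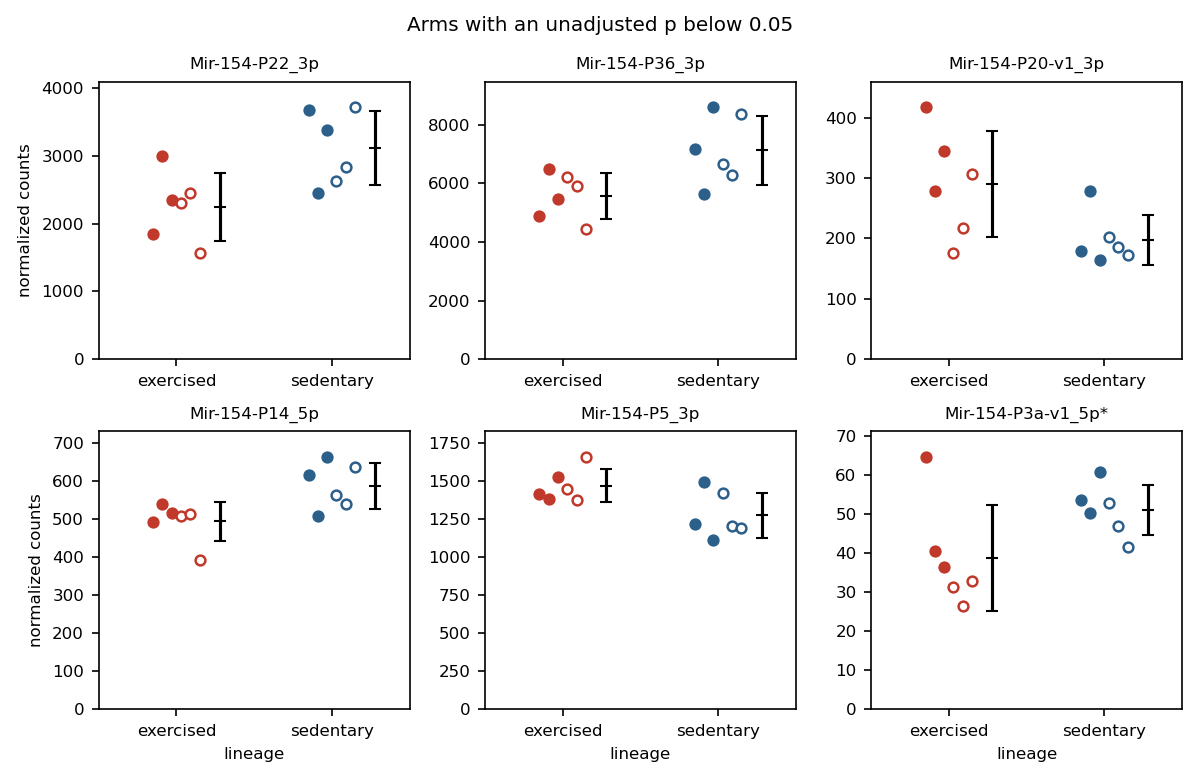
Normalized counts (vertical axes, from 0) of the 6 arms with an unadjusted p below 0.05, by lineage, with 1 point per library. Filled points are the stems R31 and S11, open points R41 and S41, and bars show mean and SD, n = 6. The lineages overlap in every panel.

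The next 4 arms by p had limma adjusted p = 0.532 as well. Mir-154-P1_3p ran from 36.4 to 56.0 (median 42.7) in the exercised and from 26.4 to 41.7 (median 34.4) in the sedentary lineage, a fold of 0.33 (SE 0.17). Mir-154-P7_3p*, the passenger of the second most abundant member, ran from 308 to 456 (median 337) against 235 to 371 (median 299.7), a fold of 0.25 (SE 0.13). In both arms all 6 exercised-lineage libraries lay above the sedentary median. Such a pattern also occurred at larger p. All 6 lay below the sedentary median of the arm for Mir-154-P10_5p and Mir-154-P17_3p (limma adjusted p = 0.615 for each). How often it occurs over all tested arms was not counted. The stems of Mir-154-P7_3p* differed within the exercised lineage, with means of 391.7 for R31 and 315.2 for R41, and its fold was 0.10 without R31 and 0.40 without R41.

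The passenger Mir-154-P34_5p* ran from 81.7 to 130 (median 111.3) in the exercised and from 84.7 to 103 (median 87.4) in the sedentary lineage, a fold of 0.25 (SE 0.13). Its 3 R41 libraries (mean 125) were above all others, while the R31 mean of 90.8 lay among the sedentary values, and the fold was 0.01 without the R41 libraries. Mir-154-P15_5p ran from 1779 to 2128 (median 1922) against 1743 to 2460 (median 2201), a fold of -0.17 (SE 0.09). Every exercised-lineage library lay below the sedentary median for that arm.

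The other 21 tested arms had mean levels from 23.1 to 3427 normalized counts. Their folds ran from -0.22 to 0.38, with 11 above and 10 below 0, and their limma adjusted p from 0.532 to 0.977. Mir-154-P12_3p was the most abundant of them, from 3164 to 4330 (median 3417) in the exercised lineage against 2358 to 4343 (median 3280), a fold of 0.21 (SE 0.14). Mir-154-P1_5p ran from 349 to 672 (median 405) against 307 to 439 (median 366), a fold of 0.28 (SE 0.18), with its highest value in exercised replicate 6. Mir-154-P4_5p ran from 677 to 1512 (median 1262) against 1107 to 1461 (median 1199), a fold of -0.08 (SE 0.17). In P4_5p exercised replicate 1 was the lowest of the 12 libraries, and every R31 library lay below every R41 one. The stem means of P4_5p were 1021 (R31) and 1401 (R41), on either side of the sedentary mean of 1244.

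The spread over the 12 libraries differed widely among members. The coefficient of variation had a median of 17.8% for the 43 tested members, against 19.96% for all tested arms. Mir-154-P17_3p varied least, from 1168 to 1296 normalized counts in the exercised and from 1215 to 1404 in the sedentary lineage (coefficient of variation 5.62%). Next came Mir-154-P13_5p at 6.71% and its 3p arm Mir-154-P13_3p at 7.99%. The latter ran from 2841 to 3713 (median 3386) against 3279 to 3589 (median 3421). Its exercised stems did not overlap, with 3473 to 3713 for R31 and 2841 to 3299 for R41, where replicates 4 and 6 were lowest. The folds of Mir-154-P17_3p and Mir-154-P13_3p were -0.09 (SE 0.07) and -0.06 (SE 0.08), and under scaling by library totals -0.00 and 0.02. That of P13_3p was 0.07 without the R41 libraries and -0.02 without either exercised replicate 4 or 6.

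Mir-154-P18_3p, Mir-154-P30_3p and Mir-154-P29-v1_5p varied most, and all 3 were rare. Mir-154-P18_3p ran from 15.7 to 46.4 (median 30.9) in the exercised and from 23.7 to 68.2 (median 36.3) in the sedentary lineage (coefficient of variation 39.5%). For Mir-154-P30_3p the values were 10.6 to 49.96 (median 17.2) against 18.3 to 29.0 (median 26.7), with exercised replicate 1 the highest of all 12 (coefficient of variation 44.2%). Their folds were -0.33 (SE 0.30) and -0.32 (SE 0.33), and neither kept its sign in every setting. The fold of P18_3p was -0.16 without exercised replicate 1, -0.15 without sedentary replicate 1 and 0.08 without the R31 libraries. For P30_3p it was -0.58 without exercised replicate 1, -0.19 and -0.15 without exercised replicates 3 and 5, and 0.07 without the R41 libraries. The arm Mir-154-P29-v1_5p ran from 7.43 to 17.6 in the exercised lineage, was listed at 0 in sedentary replicate 1, and ran from 1.81 to 19.8 in the other sedentary libraries. Its fold was 1.15 (SE 0.67, limma adjusted p = 0.532), and 0.64 without that library.

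The 3 arms below the filter were all passengers and were not tested. Mir-154-P17_5p* ran from 4.99 to 13.7 normalized counts in the exercised and from 5.46 to 8.68 in the sedentary lineage. Mir-154-P9_5p*, opposite the abundant P9_3p, ran from 4.99 to 8.42 in the exercised lineage. It was listed at 0 in sedentary replicate 2 and reached 14.8 in sedentary replicate 5. Mir-154-P19_5p* was listed at 0 in exercised replicates 1 and 6 and in sedentary replicates 2, 3 and 6, and reached 8.19 elsewhere. These values and that of P29-v1_5p were the 7 listed zeros among 552 values of the family.

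Libraries at the extremes differed from arm to arm, and exercised replicates 1 and 6 held many of them. Among the 29 members with a mean of 100 or more, exercised replicate 6 had the highest value for 5 and the lowest for 4. It was also highest for 17.1% and lowest for 10.5% of all 474 tested arms. Its Mir-154-P19_3p stood at 6798, where the other exercised libraries ran from 3687 to 5364 and the sedentary ones from 3508 to 4205. The same library was lowest for Mir-154-P36_3p, Mir-154-P22_3p and Mir-154-P14_5p. The fold of Mir-154-P19_3p was 0.24 (SE 0.14, limma adjusted p = 0.532), and 0.13 without that library. Exercised replicate 1 was lowest for 7 of the 29 members, among them both arms of P10, and highest for 3, among them Mir-154-P20-v1_3p. Over all tested arms this library was also the one most often lowest (25.1% of arms) or highest (19.8%). Extremes also fell in the sedentary lineage, where replicate 3 was highest for 5 and lowest for 3 of the 29 members. It was highest for 8.86% and lowest for 8.44% of all tested arms.

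**Figure D4:**
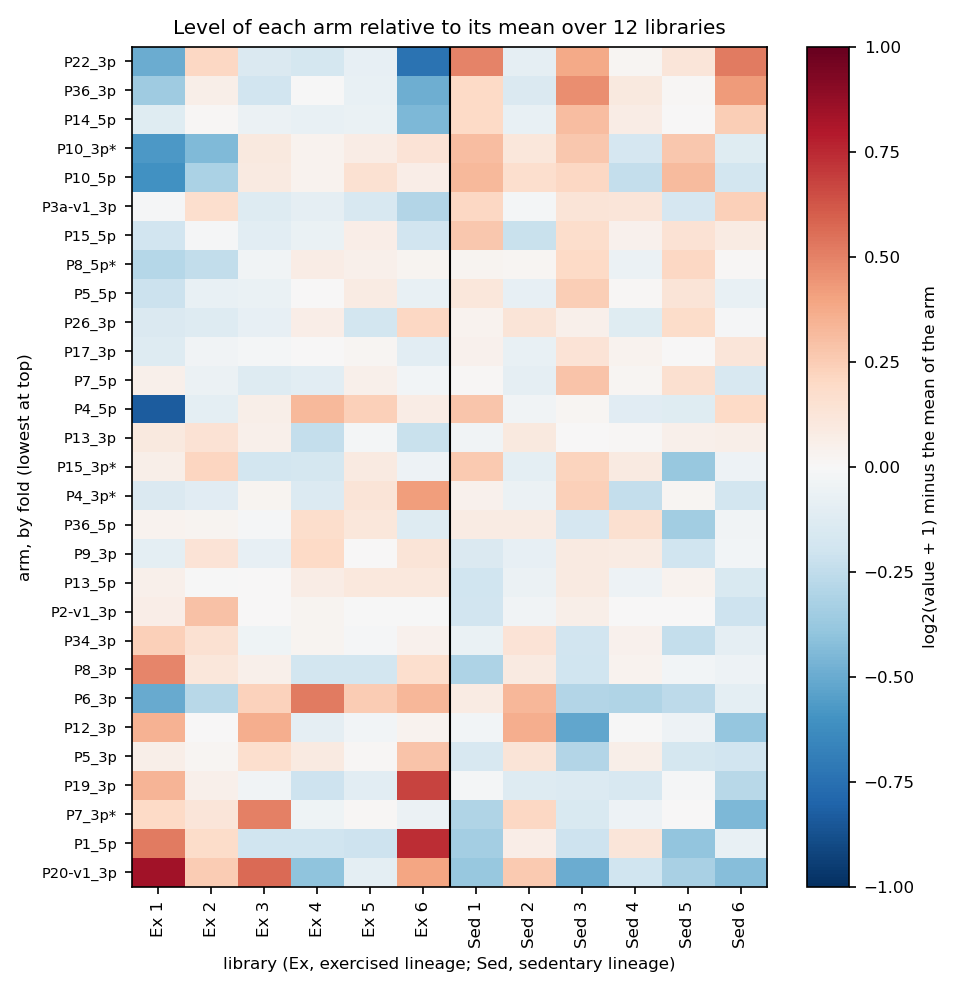
Level of each of the 29 members with a mean of 100 or more (rows, by fold) in each library (columns), as log2(value + 1) minus the arm's mean over 12 libraries. Exercised replicates 1 and 6 (Ex 1, Ex 6) hold many of the strongest colours, and no arm separates the lineages fully.

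The balance between the arms of a hairpin spanned several orders of magnitude in this family. Both arms passed the filter for 17 paralogues, of which 9 had more 5p and 8 more 3p. The 5p share was 99.6% for Mir-154-P7, where 5p was 241-fold above 3p, and 97.2% for Mir-154-P13. Mir-154-P14 had 95.3% on the 5p arm. At the other end of these 17, Mir-154-P34 had its 3p arm 361-fold above 5p, Mir-154-P22 87.6-fold and Mir-154-P12 85.0-fold. The hairpins of P9, P19 and P17 are not among the 17, since their 5p arms fell below the filter. Their 3p and 5p means were 50387 and 7.71 for P9, 4317 and 3.40 for P19, and 1280 and 8.23 for P17. Mir-154-P8 and Mir-154-P10 had both arms at similar levels, with 62.5% and 60.9% on the 5p arm. For P8 the 5p arm carries the passenger mark in the table and yet was the more abundant on average, from 0.980 to 2.21 times the 3p arm in single libraries.

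No paralogue showed a called difference in this balance between the lineages. The log2 ratio of 5p to 3p, in which the size factor cancels but for the pseudocount, was fitted with limma over the 175 genes of the table with both arms tested. It called 0 of the 17 members and 0.0% of all genes. At an unadjusted p below 0.05 there were 3 members, against 6.29% of all genes. The arms had folds of opposite sign in 11 of 17 paralogues, against 45.7% of all genes.

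Mir-154-P36 had the smallest p of these ratios. Its log2 ratio ran from -1.69 to -1.26 (median -1.46) in the exercised and from -2.28 to -1.42 (median -1.89) in the sedentary lineage. All 6 exercised-lineage libraries lay above the sedentary median, a difference of 0.42 (SE 0.15, limma adjusted p = 0.547). In the 5p arm the fold was 0.07, in the 3p arm -0.35. Mir-154-P5 moved the other way, from 2.40 to 2.84 (median 2.60) against 2.55 to 3.30 (median 2.96). Its difference was -0.32 (SE 0.14, limma adjusted p = 0.547), with a fold of -0.12 for 5p and 0.21 for 3p.

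Mir-154-P12 ran from -7.02 to -6.15 (median -6.63) against -6.48 to -6.04 (median -6.11), a difference of -0.39 (SE 0.17, limma adjusted p = 0.547). All 6 exercised-lineage libraries of P5 and of P12 lay below the sedentary median. Of the paralogues with an extreme ratio, Mir-154-P7 differed by -0.32 (SE 0.16), Mir-154-P14 by -0.52 (SE 0.24) and Mir-154-P22 by 0.52 (SE 0.24). The differences of Mir-154-P13 and Mir-154-P34 were 0.18 (SE 0.11) and 0.11 (SE 0.17). These 5 had limma adjusted p of 0.547, 0.547, 0.547, 0.611 and 0.832, and all of them moved when the libraries of a stem were left out. Without the R41 libraries the difference of P13 was 0.01, that of P22 0.28 and that of P34 -0.17. Without the R31 libraries that of P7 was -0.16. The difference of P14 was -0.21 without the S11 libraries and -0.34 without sedentary replicate 3 alone. Leaving out 1 library at a time gave 0.05 to 0.20 for P34.

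**Figure D5:**
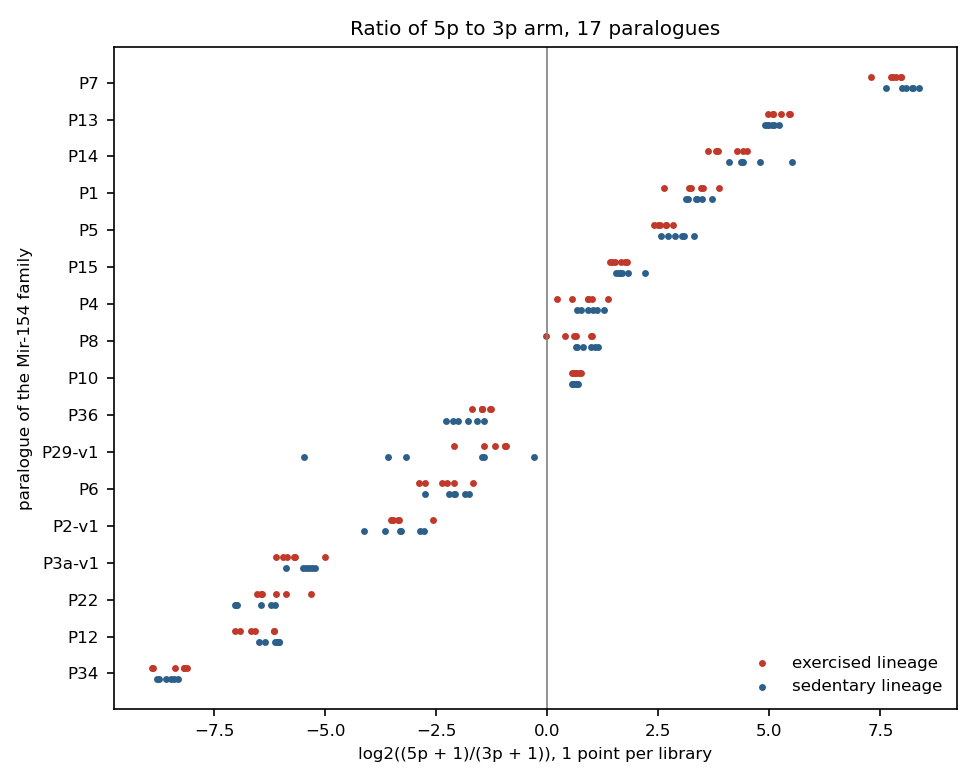
Log2 ratio of 5p to 3p arm (horizontal axis, pseudocount 1) for the 17 paralogues with both arms tested, with 1 point per library. Mean ratios run from -8.49 (P34, nearly all 3p) to 7.92 (P7, nearly all 5p).

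The arms of P10 followed each other closely across libraries. Mir-154-P10_5p ran from 2669 to 4508 (median 4204) in the exercised and from 3437 to 5085 (median 4625) in the sedentary lineage. The passenger Mir-154-P10_3p* ran from 1751 to 2880 (median 2715) against 2330 to 3240 (median 2984). Their ratio stayed between 1.47 and 1.70 in all 12 libraries, with an SD of 0.07 on the log2 scale, the smallest of the 175 genes. Across the 12 libraries Pearson's r of the log2 values was 0.97 (permutation p = 1e-05, the smallest that 100000 permutations can give, adjusted p = 0.00017 over 17 paralogues). Spearman's rho was 0.95 (permutation p = 3e-05, adjusted p = 0.00051). Without the 2 libraries farthest from the median r was 0.96, and with the lineage means removed it was 0.97. Arms of a library share its size factor. The folds of P10_5p and P10_3p* were -0.19 (SE 0.15) and -0.22 (SE 0.15), with limma adjusted p of 0.615 and 0.571. Without exercised replicate 1, the lowest library for both arms, the fold of P10_5p was -0.09, and without all 3 R31 libraries it was -0.01.

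Close tracking of both arms was not general. Over the 17 paralogues r had a median of -0.04 and ran from -0.70 to 0.97, and over the 175 genes the median was 0.17. Some pairs hold a rare arm, such as P14_3p* and P29-v1_5p with means of 26.5 and 10.5 normalized counts. The part of counting noise in r was not tested. P10 was the 1 paralogue past the adjusted threshold in either measure. Mir-154-P8 had an r of -0.70 (rho -0.69, permutation p = 0.012 and 0.0173, adjusted p = 0.102 and 0.147), which was -0.37 without the 2 farthest libraries. Within the lineages its r was -0.79 (exercised) and -0.29 (sedentary). The exercised stems R31 and R41 differed in both arms, with means of 2087 and 2456 for P8_5p* and of 1661 and 1361 for P8_3p. Mir-154-P5 had an r of -0.66 (rho -0.61, permutation p = 0.018 and 0.04, adjusted p = 0.102 and 0.227) and -0.58 without the 2 farthest libraries. Within the lineages it was -0.18 (exercised) and -0.70 (sedentary).

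The variants of P20 are the only pair with separate rows for 1 arm. Mir-154-P20-v1_3p exceeded Mir-154-P20-v2_3p in all 12 libraries, by 7.17-fold to 14.6-fold (median 12.2) in the exercised and by 6.68-fold to 17.4-fold (median 9.99) in the sedentary lineage. The v2 arm ran from 14.9 to 42.6 (median 24.8) against 9.97 to 28.7 (median 18.6), a fold of 0.38 (SE 0.29). Both variants thus had a fold above 0, and their ratio overlapped between the lineages.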

How the data were processed

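Small RNA libraries of 12 hippocampi were prepared with the NEBNext small RNA kit, per the labels' protocols. The deposited values are a signal, reads per mature arm divided by 1 size factor per library by the authors, and are not whole although the columns are named raw. Per the submitters' processing notes, Bowtie 1.3.0, mm10 and DESeq2 were used. The handling of reads that match several loci is not given in the sources used here, so near-identical paralogues are uncertain. All values of a library were whole multiples (within 0.01) of 1 step, which gave the depth, but the smallest value stood for 2 to 6 reads and no count model was fitted.

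Here log2(value + 1) of the 474 arms with a mean of at least 10 was fitted with limma 3.58.1 in R 4.3.3 (mean-variance trend, two-sided), and Benjamini-Hochberg adjusted p below 0.05 was called. Arm ratios were fitted by the same function, which was tested on simulated arm values. Permutation tests of correlations were two-sided. The lineages share mouse numbers 1 to 6, but nothing pairs them, and each library was taken as 1 animal. Intervals cover the spread between libraries, and PCR copies were not told apart.

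Members, lists and tests were chosen with earlier results of these data known. The named arms are the 8 most abundant, the 10 with the smallest p, the 3 with the highest and the 3 with the lowest variation, all below the filter or listed at 0, and for ratios the 3 highest, the 3 lowest and the 3 with the smallest p. Arms P1_5p, P4_5p, P12_3p, P10_3p*, P20-v2_3p and the arms of P8 were named after their values were seen.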

Additional observations from a re-analysis of the deposited data

Results flagged for a closer look

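A library stood far from the other 5 of its lineage in 5 of 68 sets of 6 values examined. Chance gives about 1 in 20 for independent sets, but the named arms and ratios were partly chosen by these same values. These rates therefore cannot be compared. Mir-154-P20-v1_3p stood at 279 normalized counts in sedentary replicate 2, against 165 to 203 in the others. Mir-154-P14_5p stood at 393 in exercised replicate 6, against 493 to 541. The passenger Mir-154-P3a-v1_5p* stood at 64.8 in exercised replicate 1, against 26.5 to 40.4. For Mir-154-P34_5p* sedentary replicate 6 stood at 103, against 84.7 to 89.0. The log2 ratio of 5p to 3p of Mir-154-P7 was 7.29 in exercised replicate 3, against 7.74 to 7.96.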

How the results depend on the processing

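The count of called family arms and of called family ratios was 0 under every alternative run, with lowest adjusted p of 0.379 to 0.753 for arms and 0.314 to 0.871 for ratios. Family arms at an unadjusted p below 0.05 numbered 6, but 2 with the replicate block, 1 without the S41 and 9 without the R31 libraries. They numbered 3 to 8 with 1 library left out, 3 without exercised replicate 6. With the stem as a correlated block the number of such arms stayed at 6, and 0 were called. The correlation within a stem, estimated as 1 value for all arms together, was -0.004, and for all arm ratios 0.012. Such a value does not describe single arms. Stems differed for some members, such as Mir-154-P34_5p* with means of 90.8 (R31) and 125 (R41). The replicate block changed no call. Same-numbered libraries did not deviate together (correlations -0.17 to 0.15, over 0.1 in 1 of 6 pairs, and 1 of 6 exercised-lineage libraries correlated best with its own number).

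The median fold of the family (-0.02) was 0.049 with no filter, 0.021 with a mean of at least 50, 0.069 with scaling by totals and 0.044 with upper-quartile scaling. It was 0.075 without the R31 and 0.091 without the S11 libraries, and -0.052 to 0.069 with 1 library left out. The median over all tested arms (-0.001) was 0.085 with scaling by totals and 0.061 with upper-quartile scaling. The cause of the family's shifts was not tested. Folds changed sign for Mir-154-P7_5p (0.011) and Mir-154-P13_3p (0.024) under scaling by totals, and for Mir-154-P18_3p (0.081) without R31. Without R41 they did for Mir-154-P30_3p (0.073), Mir-154-P13_3p (0.067) and the ratio of Mir-154-P34 (-0.17). The other 734 values of named arms and ratios kept their direction. The family share was 4.03% to 4.36% of counts in the exercised and 3.82% to 3.95% in the sedentary lineage with 1 library left out. The tests of recovered reads with count models were not run.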
